A study of Mus musculus with 4 samples.

Results

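CD45+ leukocytes from tumours of mice given a STING agonist together with an LTβR agonist were compared, gene by gene, with those from untreated mice. The cells were all barcodes with 300 to 5000 detected genes and at most 6% of unique molecular identifiers (UMIs) from mitochondrial genes, 15698 in the combination library and 7776 in the untreated library, or 23474 of the 51841 cells within these limits in the 4 libraries of the study. Expression was described for all cells and for 3 classes set by a few lineage genes. T cells had at least 2 of Cd3d, Cd3e and Cd3g. B and plasma cells had at least 2 of Cd79a, Cd79b, Ms4a1 and Mzb1. Macrophages and monocytes had Csf1r and neither Cd3e nor Cxcr2.

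STING is an adaptor on the endoplasmic reticulum that binds cyclic dinucleotides and signals through TBK1 to IRF3 and to NF-kB, which turn on type I interferons and inflammatory cytokines. LTβR, the receptor for lymphotoxin, signals through the kinase NIK to the noncanonical NF-kB subunits p52 and RelB and is needed to build lymph nodes. Tumours can hold lymph node-like aggregates of B and T cells, called tertiary lymphoid structures, and the study asked whether the 2 agonists bring them about in tumours without them.

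The tumours were subcutaneous grafts of KPC cells, a pancreatic carcinoma line from a mouse model in which Pdx-driven Cre turns on the oncogenic alleles in the pancreas. The hosts were C57BL/6NHsd mice of 8 to 10 weeks, so every library shared the tumour line and the host strain. The combination group received ADU-S100, a cyclic dinucleotide, at 2 µg into the tumour and the agonistic antibody anti-LTβR 4H8 at 100 µg by intraperitoneal injection in 4 doses, and the untreated group received neither. The groups with 1 agonist, at the same amounts, are given here only as levels beside the other 2. Tumours were taken on day 14, and 10 were pooled before sorting and sequencing, so each group was 1 library of pooled animals and no difference below has a replicate check. All 95% intervals cover counting error only.

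The kept cells held 46791215 UMIs in the untreated and 50273004 in the combination library, and the median cell had 4653 and 2235 UMIs, so the combination cells were shallower. The limit of 5000 genes removed 498 untreated and 48 combination barcodes. The libraries shared 33 barcodes. Of the markers that the class rules did not use, 5 of 5 for T cells, 6 of 6 for B and plasma cells and 8 of 9 for macrophages and monocytes were at least 2-fold above the other cells of the combination library. A total of 20 untreated and 121 combination barcodes met more than 1 class rule, 10 and 94 of them as B cell and macrophage. Genes were counted as higher or lower when they had at least 200 UMIs over both libraries and differed by 2-fold or more in CPM, a log2 ratio of 1. CPM is the number of UMIs of a gene per 1000000 UMIs of the same cells. The median log2 ratio of the genes tested was -0.13 in all cells, -0.05 in T cells, 0.11 in B and plasma cells and -0.08 in macrophages and monocytes, and each gene list below is read beside that value.

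The combination library held a larger share of B and plasma cells and a smaller share of T cells. B and plasma cells were 613 of 15698 cells, 3.90% (95% interval 3.61 to 4.22), against 62 of 7776, 0.797% (0.612 to 1.02), a ratio of 4.90. T cells were 1018 cells, 6.48% (6.10 to 6.88), against 1093, 14.1% (13.3 to 14.8), a ratio of 0.461. Both directions were the same after each cell was thinned to 1000 UMIs, which left out 2942 combination and 582 untreated cells, with B and plasma cells at 2.02% against 0.209% and T cells at 3.95% against 7.49%. Macrophages and monocytes differed little and changed order with thinning, with 44.9% (44.1 to 45.6) of combination and 46.6% (45.4 to 47.7) of untreated cells, and 30.6% against 25.2% after thinning. In the libraries of the STING agonist and the LTβR agonist alone, B and plasma cells were 0.356% and 3.02% and T cells were 3.65% and 11.6%.

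**Figure D1:**
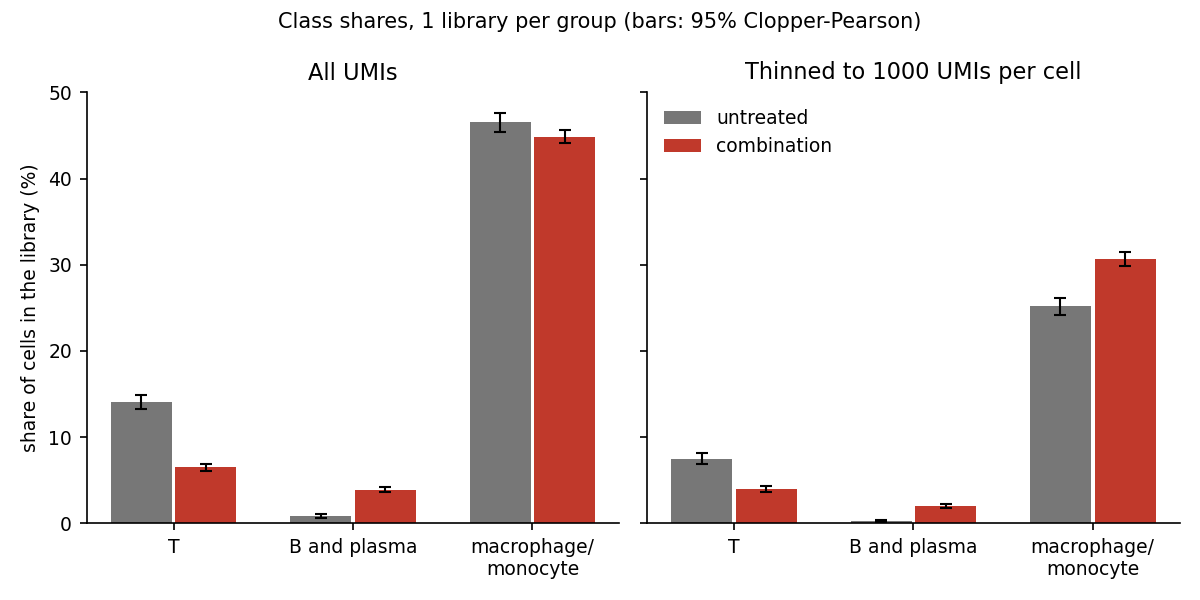
Share of cells (%) in each class in the untreated (grey) and combination (red) libraries, with all UMIs (left) and after thinning to 1000 UMIs per cell (right), and 95% Clopper-Pearson intervals for counting error. B and plasma cells stand higher in the combination library in both panels, from 0.797% to 3.90% on the left, T cells stand lower, and the order of macrophages and monocytes differs between the panels.

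Over all cells, all 12 immunoglobulin constant genes tested, 6 of 15 B cell identity genes and 7 of 17 plasma cell genes were higher with the combination, and 9 of 15 regulatory T cell genes, 6 of 18 checkpoint and exhaustion genes and 5 of 18 dendritic cell genes were lower. Some lists share genes. Ctla4 was counted in both the regulatory T cell and the checkpoint lists, and Itgae in both the regulatory T cell and the dendritic cell lists. Of 12082 genes tested, 250 (2.07%) were higher and 172 (1.42%) were lower. When the log2 ratios were centred on their median the same counts were 300 and 119, and with all deposited barcodes, before the limits on genes and mitochondrial UMIs, they were 260 and 319, so that lower genes were then the more numerous. Immunoglobulin genes made up 103 of the 250 higher and 18 of the 172 lower genes, and their part of all UMIs was 0.849% in the untreated and 3.88% in the combination library. In sorted pools, more cells of a type and more RNA per cell cannot be told apart from these sums, and the summed level of the 10 B and plasma markers was 420 CPM in the untreated and 1587 in the combination library.

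The B cell genes with the largest ratios named the lineage. Pax5, the transcription factor that holds B cell identity, was at 0.919 CPM untreated, 0.296 with the STING agonist, 9.79 with the LTβR agonist and 11.0 with the combination, a log2 ratio of 3.57. Its 2 lowest levels were those of the libraries without the LTβR agonist. Ms4a1, which encodes CD20, had a log2 ratio of 3.16, Cd79a, a signalling chain of the B cell receptor, 2.95, and Fcmr, the receptor for IgM, 3.01. Bhlha15, a factor of secretory cells such as plasma cells, had 2.78, and Il5ra, the IL-5 receptor chain found on eosinophils and some B cells, 3.11. Of 15 B cell identity genes tested, 6 were higher and 0 lower, with a median log2 ratio of 0.39, and of 17 plasma cell genes 7 were higher and 0 lower, with a median of 0.73. Mzb1, an endoplasmic reticulum chaperone of antibody-secreting cells, was at 45.5 and 187 CPM in the untreated and combination libraries. Tnfrsf13c, the BAFF receptor, had a log2 ratio of 1.74, and Cxcr5, the receptor that brings B cells to follicles, 1.46, while Tnfsf13b, which encodes BAFF itself, had -0.58. Other named genes were Lyz1 at 3.28, Asgr2 at 2.57, Nuggc, expressed in germinal centre B cells, at 2.52, Reln at 2.45 and the calcium channel gene Cacna1h at 2.30. Of 8 germinal centre genes tested Nuggc was the 1 that was higher and Gcsam the 1 that was lower, with a median of -0.12. Within the B and plasma class Nuggc had 0.08. Lyz1 is close in sequence to Lyz2, and reads can be split between the 2 genes.

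Of 15 regulatory T cell genes tested, 9 were lower and 0 higher, with a median log2 ratio of -1.20. Foxp3, the lineage factor of regulatory T cells, was at 15.5 CPM untreated, 3.65 with the STING agonist, 5.86 with the LTβR agonist and 2.69 with the combination, a log2 ratio of -2.53 (-2.81 to -2.26). Tnfrsf4, which encodes OX40, had -1.81, Ccr8 -1.46, Il2ra, the high-affinity IL-2 receptor chain, -1.39, Ikzf2 -1.30 and Ctla4 -1.26. Ctla4 stayed past 2-fold in 6 of 7 alternatives. Tnfrsf18, at -1.03 and also counted among the 9, did so in 3 of 7. Of 18 checkpoint and exhaustion genes 6 were lower and 0 higher, Pdcd1 at -1.21, Tox at -1.20 and Tigit at -1.09 among them, while 6 had ratios above 0 and the summed level of the list was 2396 CPM in the untreated and 2398 in the combination library. The cytotoxic list had 3 of 18 lower, Klrg1 at -2.14, Gzmk at -1.39 and Klrd1 at -1.02. With all deposited barcodes Pdcd1 had -0.94, Tox -0.91, Tigit -0.81 and Klrd1 -0.72, and Klrd1 stayed past 2-fold in 2 of 7 alternatives. The summed level of the 8 T markers was 700 CPM in the untreated and 433 in the combination library, beside the smaller share of T cells, and the part of that share in these ratios was not tested. Within the T class, described below, Foxp3 had -1.94. The medians there were -0.69 for the regulatory T cell list and -0.31 for the checkpoint and exhaustion list.

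Dendritic cell genes were lower for 5 of 18 tested and higher for 0. Siglech, a receptor of plasmacytoid dendritic cells, was at 21.2 CPM untreated and 3.88 with the combination, a log2 ratio of -2.45, and Xcr1 and Clec9a, markers of cross-presenting dendritic cells, had -1.58 and -1.07, the latter -0.91 with all deposited barcodes. Of 17 neutrophil genes 6 were higher and 0 lower. S100a9, a calcium-binding protein of neutrophils, was at 549, 6143, 1167 and 1105 CPM in the untreated, STING agonist, LTβR agonist and combination libraries, so the combination stood with the LTβR agonist and far below the STING agonist. Its log2 ratio of 1.01 was 0.36 after thinning. The other genes with the largest negative ratios were Car8 at -3.00, Cacna1c at -2.43, Fat3 at -2.31, Adam12 at -2.09, Itgb8, an integrin chain that activates TGF-beta, at -2.07, Grm8 at -1.99, Prkg1 at -1.95, Insrr at -1.94 and Ch25h, which makes 25-hydroxycholesterol, at -1.93.

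The receptors and signalling genes of the 2 agonist pathways differed little on day 14. Of 11 STING pathway genes tested none passed 2-fold in either direction, with a median log2 ratio of 0.01. Sting1 itself was at 75.7, 56.6, 68.7 and 66.6 CPM in the untreated, STING agonist, LTβR agonist and combination libraries. Its kinase Tbk1 had a log2 ratio of 0.13, the factor Irf3 -0.06 and Cgas, which makes the natural STING ligand, -0.33, whereas Enpp1, which degrades that ligand, had 0.92. Enpp1 was found in 58.1% of untreated and 44.4% of combination B and plasma cells, and the part of their larger share in its ratio was not tested. The highest ratio of a STING pathway gene tested within a class was 0.27 in T cells. It was 0.26 in macrophages and monocytes and -0.04 in B and plasma cells. Ifnb1 had 21 UMIs in the untreated and 41 in the combination library, too few for the count minimum. Interferon-stimulated genes did not differ by 2-fold for any of the 39 tested, and 33 of them had ratios below 0, with a median of -0.17 beside -0.13 for all genes. The lymphotoxin and noncanonical NF-kB list had 1 of 16 higher, the B cell gene Tnfrsf13c, and a median of -0.08. Ltbr was at 31.0, 29.3, 34.0 and 31.5 CPM, Map3k14, which encodes NIK, had a log2 ratio of -0.14, Nfkb2 0.25 and Relb 0.07. The canonical NF-kB list had no gene past 2-fold and 13 of 16 above 0. Nfkbia, the inhibitor that NF-kB induces as its own brake, was at 628, 2444, 881 and 920 CPM, with a log2 ratio of 0.55, and Nfkb1 had 0.37.

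All 8 heavy-chain and all 4 light-chain constant genes of immunoglobulin were higher in all cells, with median log2 ratios of 2.66 and 2.89. Of 20 inflammatory macrophage genes 4 were higher and 0 lower, with a median of 0.70, namely Cxcl3, Il23a, Saa3 and Slpi, of which Cxcl3 had 0.69 and Il23a 0.43 in thinned cells. Of 13 helper T cell genes Cxcr5 was higher and Il5, Il13 and Icos were lower, with a median of -0.79, but without the top cell of each gene Il5 had 0.80 and Il13 0.75, and Icos had -0.98 with all deposited barcodes. None of 18 cell cycle genes passed 2-fold, with a median of -0.20, and none of 12 natural killer cell genes did, with a median of -0.56. None of 17 MHC class I and 14 MHC class II presentation genes passed it, with medians of -0.19 and 0.11, and none of 23 secretory pathway genes, with a median of 0.17. Of 11 lymphoid homing genes Cxcr5 was the 1 that was higher, and Ccr7 had -0.47. The chemokines that place lymphocytes in lymphoid tissue were too sparse to test, with 3 and 8 UMIs for Ccl19, 5 and 3 for Ccl21a and 85 and 42 for Cxcl13 in the untreated and combination libraries.

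**Figure D2:**
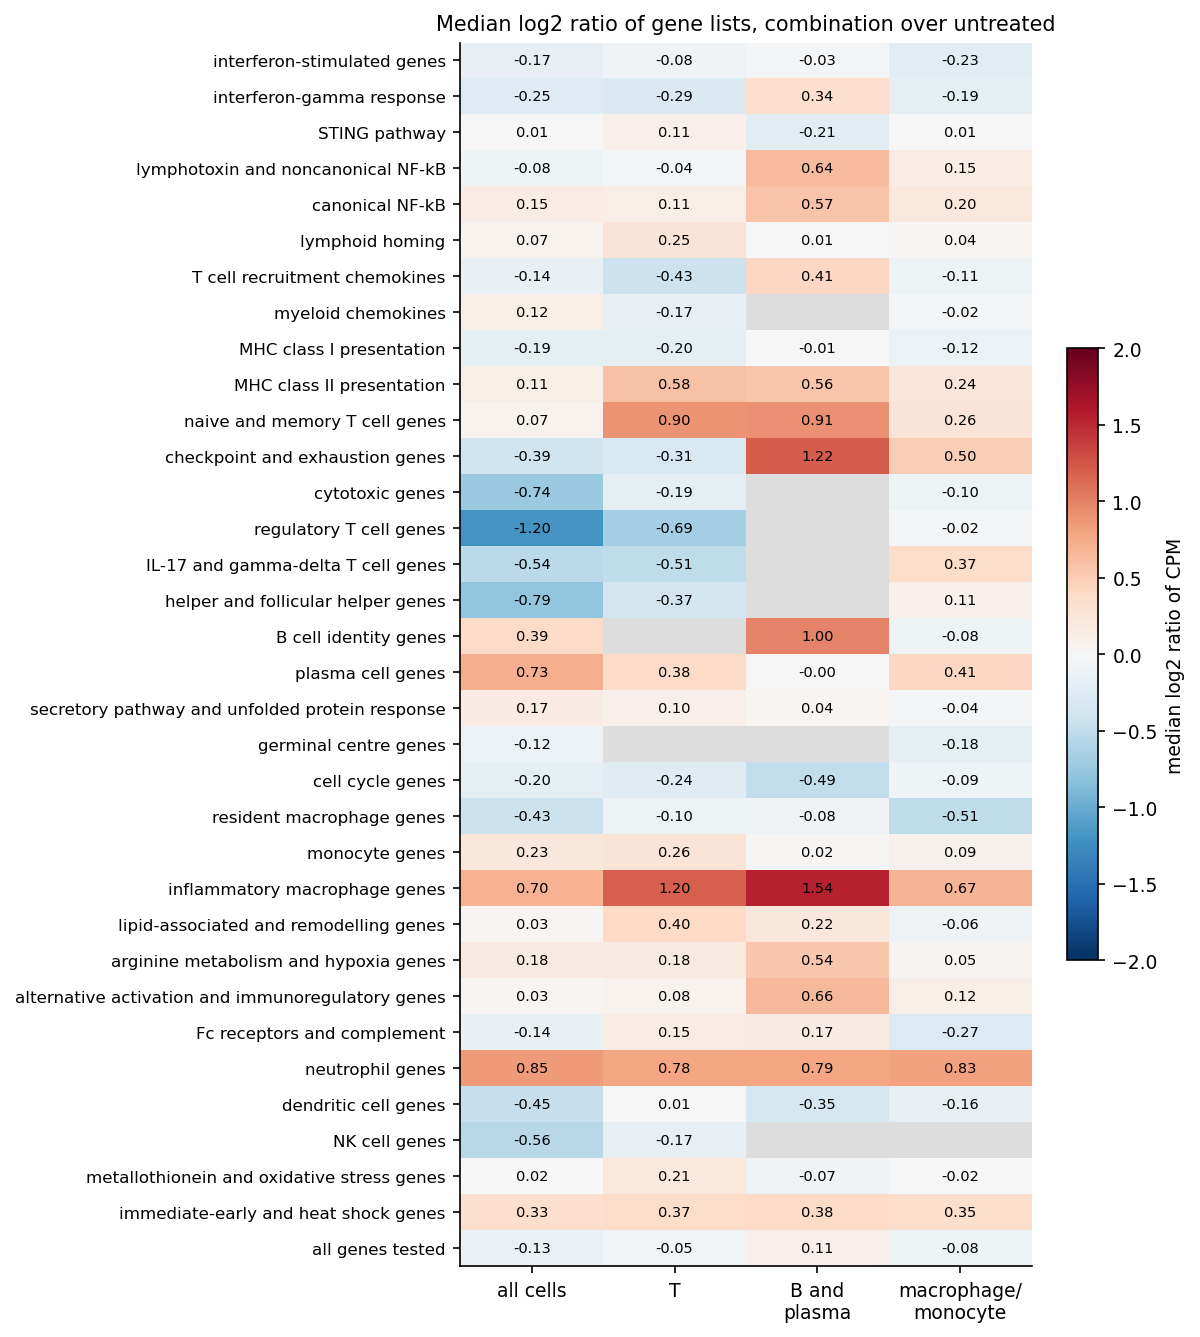
Median log2 ratio (combination over untreated, CPM) of each gene list other than the immunoglobulin chains, in all cells and in the 3 classes, and the same median over all genes tested in the last row. Grey cells had fewer than 5 genes tested. The regulatory T cell list is at -1.20 in all cells, the B cell identity list at 1.00 in B and plasma cells, the resident macrophage list at -0.51 and the inflammatory list at 0.67 in macrophages and monocytes.

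Within the T class, 3 of 15 regulatory T cell genes were lower with the combination, Foxp3 among them, and 5 of 17 genes of naive and memory T cells were higher, Lef1 and Ccr7 among them. Of 6631 genes tested, 79 (1.19%) were higher and 27 (0.407%) were lower, and with all deposited barcodes 64 were higher and 94 lower. The class had 1093 untreated and 1018 combination cells with median UMIs of 4288 and 2372.5. Cells with Cd8a or Cd8b1 and no Cd4 were 517 (47.3%) and 561 (55.1%) of the class, and cells with Cd4 and neither Cd8 gene were 220 (20.1%) and 116 (11.4%). These shares rest on finding the genes in cells of unequal depth, and when the genes were read in cells thinned to 1000 UMIs they were 37.2% and 43.3%, and 10.7% and 7.71%. The summed T markers, of which Cd3d, Cd3e and Cd3g are genes of the class rule, were close, 4349 and 4211 CPM.

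All 15 regulatory T cell genes tested had ratios below 0, with a median of -0.69, and 3 of them passed 2-fold. Foxp3 was at 86.1 CPM untreated, 73.7 with the STING agonist, 37.4 with the LTβR agonist and 22.3 with the combination, a log2 ratio of -1.94 (-2.34 to -1.59). The combination level was the lowest of the 4, and the intervals of the untreated and combination levels did not overlap. Foxp3 was found in 11.3% of untreated and 3.34% of combination T cells, and after thinning in 6.76% (5.34 to 8.42) of 1080 and 2.11% (1.29 to 3.24) of 947 cells. In the CD4 cells alone its log2 ratio was -1.61, from 347 and 39 UMIs. When the class rule itself was applied to thinned cells it was -0.96. Tnfrsf4 was at 260 and 119 CPM in the untreated and combination T cells, a log2 ratio of -1.12, which became -0.65 in thinned cells. Il1rl1, the IL-33 receptor, had -1.01, and stayed past 2-fold in 4 of 9 alternatives, with -0.74 for all deposited barcodes. Ctla4, an inhibitory receptor that regulatory T cells carry at a high level, was at 1037, 670.5, 528 and 575 CPM, a log2 ratio of -0.85 that was -0.83 in CD4 and -0.51 in CD8 cells. Ikzf2, which encodes Helios, had -0.71 and Il2ra -0.69. Klrg1, a receptor of effector and of some regulatory T cells, had -1.86, and Itgb8 was at 109 and 36.5 CPM with a log2 ratio of -1.57. Areg, a tissue repair ligand of regulatory T cells, split by subset, with -0.95 in CD4 cells and 1.92 in CD8 cells.

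Of 17 naive and memory T cell genes tested, 5 were higher and 0 lower, with a median log2 ratio of 0.90. Lef1, a factor of naive T cells, was at 129 CPM untreated, 219 with the STING agonist, 267 with the LTβR agonist and 294 with the combination, a log2 ratio of 1.19 (1.05 to 1.33). It had 1.62 in CD8 and 1.37 in CD4 cells. Igfbp4, a binding protein for insulin-like growth factors, was at 12.6, 13.5, 40.6 and 66.5 CPM, so its 2 libraries with the LTβR agonist were the high ones, and its log2 ratio was 2.39. Klf2, which controls exit from tissue to blood, had 1.11, and Ccr7, the receptor for lymph node chemokines, was at 70.1, 147, 80.6 and 142 CPM with a log2 ratio of 1.02. Ccr7 was high in the 2 libraries with the STING agonist.

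The subset values showed that these differences were larger in CD8 than in CD4 cells for most of the genes named. Tcf7, a factor of naive and stem-like T cells, had a log2 ratio of 1.51 in CD8 cells and 0.55 in CD4 cells, S1pr1, the receptor for egress, 1.60 and 0.23, Klf2 1.64 and 0.45, and Ccr7 1.32 and 0.47. Bach2, which restrains effector differentiation, had 1.11 in CD8 and 1.32 in CD4 cells. No test of the difference between subsets was possible with 1 library per group. After thinning, Ccr7 was found in 10.9% (8.96 to 13.04) of combination and 4.54% (3.38 to 5.95) of untreated T cells. Under the rule that all 3 Cd3 genes be found, the log2 ratio of Ccr7 was 0.48 and that of Klf2 0.88. Klf2 stayed past 2-fold in 7 of 9 alternatives, with 0.67 at the lowest. Rasgrp2, also counted as higher at 1.02, did so in 6 of 9.

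**Figure D3:**
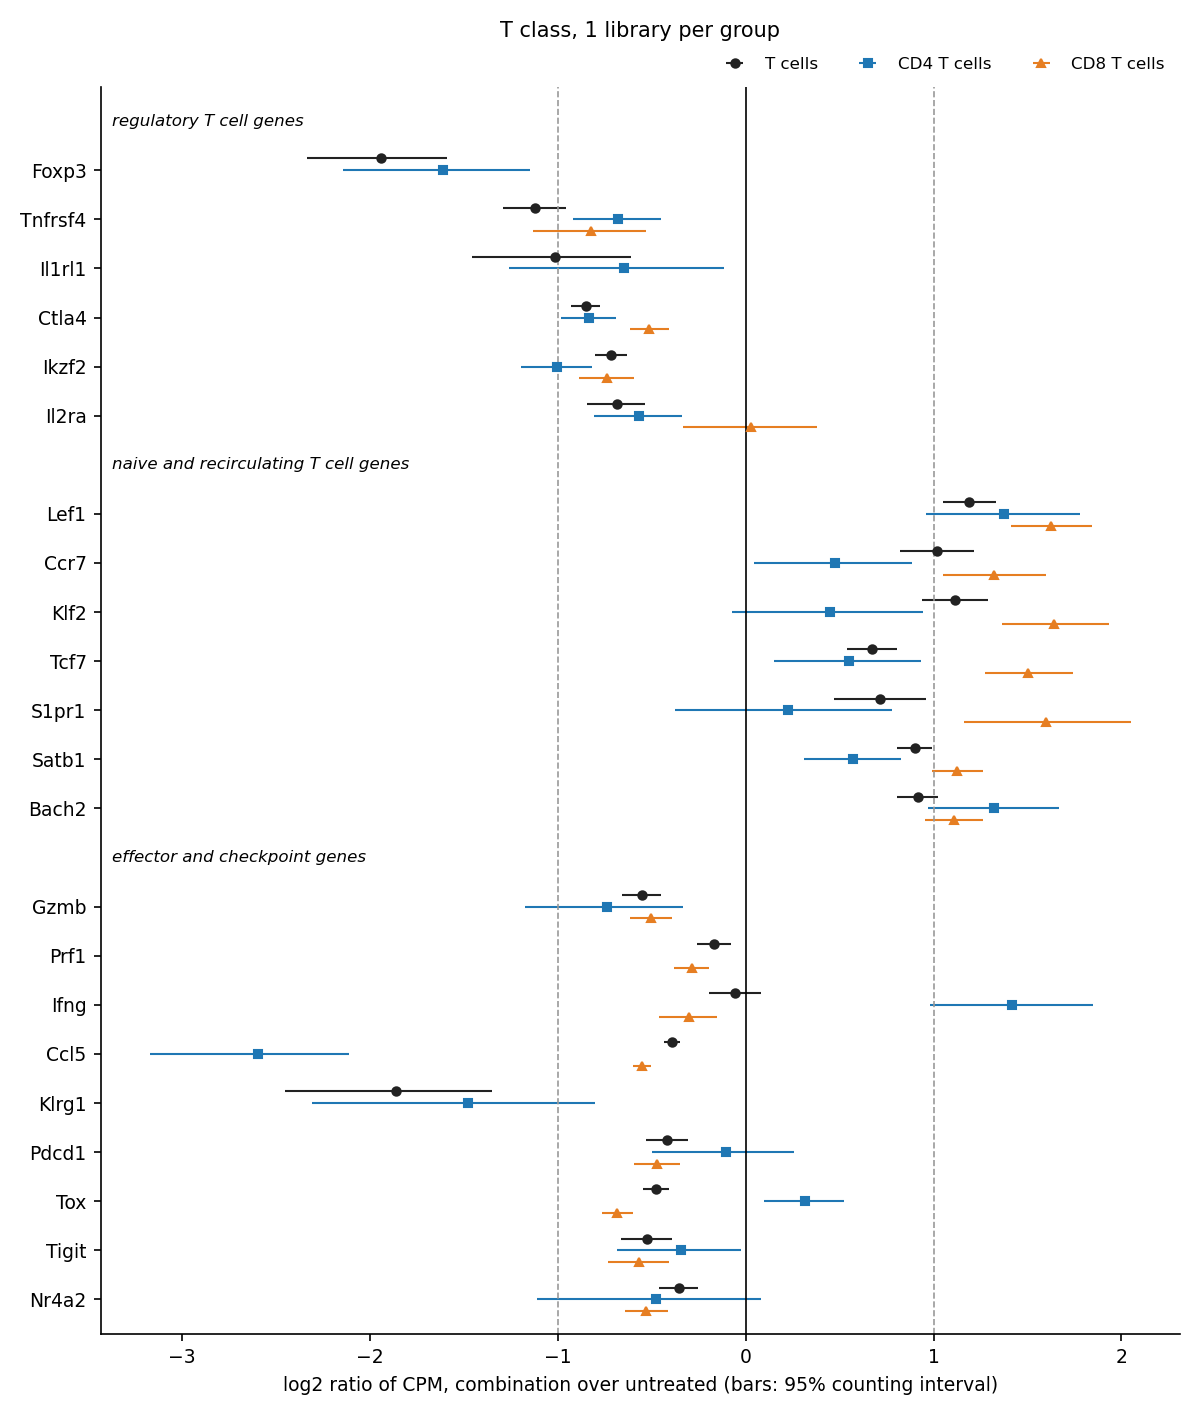
Log2 ratio of CPM (combination over untreated) in the T class (black), its CD4 cells (blue) and its CD8 cells (orange), with 95% counting intervals. Subset points with fewer than 50 UMIs over both libraries are left out, and dashed lines mark 2-fold. Foxp3 lies at -1.94 in the class and -1.61 in CD4 cells, and Tcf7 at 1.51 in CD8 cells and 0.55 in CD4 cells.

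Effector and checkpoint genes mostly stayed within 2-fold. Of 18 checkpoint and exhaustion genes none passed 2-fold in either direction, and 12 had ratios below 0, with a median of -0.31. Pdcd1, which encodes PD-1, was at 403, 300.1, 196 and 302 CPM in the untreated, STING agonist, LTβR agonist and combination T cells, a log2 ratio of -0.42, and Tox, which maintains exhausted T cells, had -0.48. In CD8 cells they had -0.47 and -0.68. The cytotoxic list had 1 of 18 higher and 2 lower. Gzmb, the main cytotoxic granzyme, had -0.55 and Prf1, which encodes perforin, -0.17. Gzma was the higher one at 2.06, but 1 cell held 50.5% of its combination UMIs. Gzmc was at 72.0 and 15.2 CPM in the untreated and combination libraries, a log2 ratio of -2.23 from 31 and 17 cells. Ifng, the interferon of T cells, had -0.06 in the class, -0.30 in CD8 and 1.42 in CD4 cells, the last from 95 and 88 UMIs. Ccl5, a chemokine of effector T cells, had -0.55 in CD8 and -2.59 in CD4 cells, from 583 and 33 UMIs in the latter.

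Several of the largest positive ratios in the T class belonged to genes known from myeloid cells. Of 14 inflammatory macrophage genes tested 9 were higher, and the median was 1.20. Il1b was at 451, 1441, 850.2 and 1146 CPM in the 4 libraries, Olr1, a scavenger receptor, had a log2 ratio of 2.26, Inhba 2.44, Slc7a11, a cystine transporter, 1.88, Mgl2 1.87, Trem1 1.55 and Hspa1a, a heat shock gene, 2.33. The other genes named by rank were Dcstamp at 1.63, Vdr at 1.60, Trf at 1.49, Rnf217 at 1.48 and Slfn4 at 1.41. Markers of other cells moved with them, since the 10 macrophage and monocyte markers summed to 2239 CPM in untreated and 2984 in combination T cells, the 9 neutrophil markers to 306 and 1010, and immunoglobulin genes were 0.252% and 1.503% of UMIs. Their part in these ratios was not tested. Without the barcodes of highest doublet score the ratios of Olr1, Slc7a11 and Slfn4 were 0.80, 0.71 and 0.33, and that of Il1b 0.92 against 1.35. With all deposited barcodes Mgl2 had 0.47, Trem1 0.66, Trf 0.38, Dcstamp 0.86 and Vdr 0.98, and in thinned cells Dcstamp, Vdr and Rnf217 were below 0. On the lower side stood Ccl7 at -1.64, which was 0.10 in thinned cells, Ttn at -1.27, Glmn, Cyp51, an enzyme of cholesterol synthesis, at -1.19, Frmd5 and the histone genes H2ac8 and H2ac4, whose near-identical copies make counts uncertain. In thinned cells Ttn had -0.96, Cyp51 -0.93, Frmd5 -0.07 and H2ac8 -0.15.

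The B and plasma class was small in the untreated library, 62 cells against 613, so its ratios rest on few untreated cells. Of 2912 genes tested, 175 (6.01%) were higher and 31 (1.06%) lower, and 76 of the higher and 27 of the lower genes were immunoglobulin genes, which differ from clone to clone. These counts were 118 and 124 with all deposited barcodes. The class held 898790 UMIs in the untreated and 4308833 in the combination library. The UMI minimum over both libraries is thus passed more easily by genes high in the combination cells. For this reason the excess of higher over lower genes in the class cannot be read as a result. The median cell had 15655.5 UMIs in the untreated and 6036 in the combination library. Cells with Ms4a1 and no Jchain, here called B cells, were 5 of the 62 untreated (8.06%) and 127 of the 613 combination cells (20.7%), and cells with Mzb1 and Jchain and no Ms4a1, here called plasma cells, were 37 (59.7%) and 333 (54.3%). Read in thinned cells of the class, the B cells were 3 of 62 (4.84%) and 99 of 593 (16.7%), and the plasma cells were 48.4% and 50.9%, the opposite order.

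In the class, 5 of 11 B cell identity genes and none of 16 plasma cell genes were higher. All 11 B cell identity genes tested had ratios above 0, with a median of 1.00, and Pax5, Ebf1, Bank1 and H2-DMb2 were among the 5 past 2-fold. The others of the 18 in the list were under the UMI minimum, which genes high in the combination cells pass more easily. Pax5 was at 35.6 CPM untreated, 17.7 with the STING agonist, 113 with the LTβR agonist and 97.5 with the combination, a log2 ratio of 1.43. It was high in the 2 libraries with the LTβR agonist. Bank1, an adaptor of B cell receptor signalling, had 1.22, Ebf1, an early B cell factor, 1.07 and H2-DMb2, a chaperone for loading of MHC class II, 1.61. In the part with Ms4a1 and no Jchain the log2 ratios were -0.64 for Pax5, 0.05 for Ebf1 and -0.34 for Bank1, from only 5 untreated cells. After thinning Pax5 had 0.18, H2-DMb2 0.44, Ebf1 0.55 and Bank1 0.78.

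By summed CPM, the plasma cell programme was close to equal in the 2 libraries. Of 16 plasma cell genes tested, of which Mzb1 is also a gene of the class rule, none passed 2-fold, 8 were above and 8 below 0, with a median of -0.00. Xbp1, which drives the secretory programme, was at 1146, 1208, 1298 and 1218 CPM in the untreated, STING agonist, LTβR agonist and combination cells, a log2 ratio of 0.09 (-0.01 to 0.19). Prdm1, which encodes Blimp-1, had -0.06, Sdc1, which encodes CD138, -0.03, Derl3 0.09, Pou2af1 -0.24 and Irf4 -0.41. None of 22 secretory pathway and unfolded protein response genes passed 2-fold, with a median of 0.04, and the chaperone Hspa5 had -0.14. After thinning, however, Hspa5 was found in 77.4% (65.0 to 87.1) of untreated and 52.3% (48.2 to 56.4) of combination cells of the class. Of 6 cell cycle genes tested 5 had ratios below 0, with Mki67 at -0.70.

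Heavy chains differed by isotype, and single cells weighed on them. Ighm, the heavy chain of IgM, had a log2 ratio of 2.19, though 1 cell held 54.7% of its untreated UMIs. Ighg2b had 2.96, with 78.5% of its untreated UMIs in 1 cell, and Ighg3 had 0 UMIs in the 62 untreated and 8197 in 37 of the combination cells. Over 8 alternatives Ighm ranged from 2.08 to 5.31 and Ighg2b from 1.35 to 5.10. Ighg1 was at -0.51, Igha at -0.50 and Ighg2c at 0.45. Of the light chains, Igkc had 0.57 and Iglc2 1.80. Immunoglobulin genes together were 42.3% of untreated and 40.0% of combination UMIs in the class.

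The other genes with the largest positive ratios were of several kinds. Nrg1_ENSMUSG00000062991, which encodes neuregulin 1, had 3.12, from 8 and 355 UMIs. Nr4a3 and Nr4a2, immediate-early nuclear receptors, had 2.64 and 1.965, and Nr4a3 was at 7.79, 17.7, 29.7 and 51.8 CPM in the 4 libraries. Nfil3, a bZIP transcription factor, had 1.94, Iigp1, an interferon-induced GTPase, 2.25, Plscr1 1.77, Mpp7 1.84 and Arhgef18 1.77. Ltb, a subunit of the LTβR ligand, had 1.32 from 16 and 197 UMIs, and Rel, an NF-kB subunit of lymphocytes, 1.30. Ptgs2 at 2.19, Cxcl2 at 2.18 and Ccl5 at 2.02 are known from myeloid or T cells. In the combination library several of these genes were at a far higher level in macrophages and monocytes than in this class. Nrg1_ENSMUSG00000062991 was at 82.4 CPM in the class and 535 in macrophages and monocytes, Nr4a3 at 51.8 and 356, and Nr4a2 at 45.5 and 278. Mpp7 was at 97.7 and 542, Nfil3 at 53.1 and 263, and the part of macrophage RNA in their ratios was not tested. Macrophage and monocyte markers summed to 3250 CPM in the untreated and 3276 in the combination class and neutrophil markers to 119 and 366, and 10 untreated (16.1%) and 94 combination (15.3%) cells of the class also met the macrophage rule. In thinned cells Iigp1 had -0.93, Nr4a2 -0.017, Ltb -0.25, Plscr1 0.61, Nr4a3 0.94 and Ptgs2 0.94. With all deposited barcodes Nr4a3 had 0.73, Nr4a2 0.21, Nfil3 0.38, Mpp7 0.76, Iigp1 0.48, Cxcl2 0.67, Rel 0.53 and Ccl5 -0.43. On the lower side 4 genes other than immunoglobulin genes passed 2-fold. Mpeg1, a pore protein of phagocytes, had -1.18 and the linker histone gene H1f0 -1.02, the latter -0.74 in thinned cells. The other 2, H2ac8 and Serpina3f, were too narrowly found for the naming rule, which asks for 20 cells of the higher library, and are given here after their values were seen. H2ac8, 1 of many near-identical histone genes, was at 219 and 37.4 CPM, a log2 ratio of -2.55, with its 197 untreated UMIs in 13 cells, and it had -0.73 without barcodes that met more than 1 class rule. Serpina3f, a serine protease inhibitor gene with close copies, was at 138 and 45.5 CPM, a log2 ratio of -1.60, with 54.8% of its 124 untreated UMIs in 1 of 6 cells, and it had -0.74 without the top cell. A minimum of 20 cells is a larger part of the 62 untreated than of the 613 combination cells of the class. The next eligible genes by rank stayed within 2-fold, from Bst2, an interferon-induced restriction factor, at -0.98 and Irf8 at -0.94 to Ints6 at -0.71, with Rnase6, Acadl, Serpina3g, Stk3, Lars2 and Mvb12a named by the same rank. Mpeg1 was at 0.31 when 3 of the 4 lineage genes were asked for. Dendritic cell markers summed to 168 CPM in the untreated and 54.8 in the combination class. Siglech among them was at 128 and 0 CPM, and the part of dendritic cell RNA in these lower ratios was not tested.

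Macrophages and monocytes were the largest class, with 3620 untreated and 7042 combination cells and median UMIs of 7354.5 and 3554.5. Ccl7 and Ccl12, which encode monocyte-attracting chemokines, and the resident macrophage gene Ms4a7 were lower with the combination, and the cytokine genes Il6 and Il23a were higher. Of 10363 genes tested, 170 (1.64%) were higher and 40 (0.386%) lower, and 56 of the higher genes were immunoglobulin genes. These counts were 180 and 106 with all deposited barcodes. Cells with at least 2 of C1qa, C1qb and C1qc, here called C1q macrophages, were 2476 (68.4%) of the untreated and 4097 (58.2%) of the combination class, and cells with Ly6c2 and fewer C1q genes, here called Ly6c2 monocytes, 438 (12.1%) and 972 (13.8%). Read in thinned cells of the class, C1q macrophages were 58.9% and 51.4% and Ly6c2 monocytes 8.10% and 9.64%.

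CCL2, CCL7, CCL8 and CCL12 are chemokines that draw monocytes out of the blood through CCR2 or related receptors. Ccl7 was at 436 CPM untreated, 418 with the STING agonist, 299 with the LTβR agonist and 153 with the combination, a log2 ratio of -1.51 (-1.56 to -1.46). Ccl12 was at 447, 338, 342 and 216, a log2 ratio of -1.05, and Ccl2 at 441, 583, 357 and 227, a log2 ratio of -0.96. All 3 were lowest in the combination library. After thinning, Ccl7 was found in 17.1% (15.9 to 18.4) of 3556 untreated and 7.64% (7.01 to 8.30) of 6638 combination cells, and Ccl2 in 19.9% and 12.3%. In C1q macrophages the log2 ratios were -1.52 for Ccl7, -1.16 for Ccl2 and -0.97 for Ccl12, and in Ly6c2 monocytes -0.72, -0.00 and -0.44, a difference between subsets that was not tested. Ccl12 had -0.83 in thinned cells. Ccl8 had -0.40 and the receptor gene Ccr2 0.05.

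Of 14 resident macrophage genes tested 13 had ratios below 0, with a median of -0.51, and Ms4a7 passed 2-fold. Ms4a7, a tetraspanning membrane protein of tissue macrophages, was at 339, 311, 218 and 142 CPM in the untreated, STING agonist, LTβR agonist and combination libraries, a log2 ratio of -1.25 that was -1.13 in C1q macrophages. After thinning it was found in 22.2% (20.8 to 23.6) of untreated and 10.3% (9.61 to 11.1) of combination cells. Maf, a factor of mature macrophages, had -0.92, Pf4 -0.86, Cx3cr1, the fractalkine receptor, -0.57, Mrc1, the mannose receptor, -0.41 and C1qa, a chain of complement C1q, -0.40. Of 15 Fc receptor and complement genes 12 had ratios below 0, none past 2-fold, with Fcgr4 at -0.68, C3ar1 at -0.63 and Fcgr1 at -0.47, and Lgmn, a lysosomal protease, had -0.55. Ch25h was at 45.8, 28.7, 26.0 and 11.999 CPM, a log2 ratio of -1.93 and -1.77 in C1q macrophages. Fat3, an atypical cadherin, had -2.62, Slco2b1, an organic anion transporter, -1.58 and Cd300e, an activating receptor of monocytes, -1.503, which was -0.72 in thinned cells. The remaining genes named on the lower side were Cela1, Radx, Gpr31b, Negr1, Klra17, Eya4 and Cdca7, of which Cela1, Gpr31b and Klra17 had -0.95, 0.17 and -0.86 in thinned cells.

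Of 20 inflammatory genes tested 18 had ratios above 0, with a median of 0.67, and 4 passed 2-fold. Il6 was at 19.3 CPM untreated, 98.2 with the STING agonist, 75.1 with the LTβR agonist and 52.9 with the combination, a log2 ratio of 1.46 (1.32 to 1.60). Il1b was at 2959, 7325, 4918 and 4868, a log2 ratio of 0.72, and Cxcl2, a neutrophil chemokine, at 1658, 6896, 2848 and 3075, a log2 ratio of 0.89. For these 3 genes the combination level lay between the untreated and the STING agonist levels. Cxcl1, another ligand of the neutrophil receptor CXCR2, was at 2.43, 33.4, 8.10 and 6.94, and Il23a, a subunit of IL-23, at 2.36, 41.5, 7.60 and 7.71, with log2 ratios of 1.51 and 1.70. In thinned cells they were 0.48 and 0.83. Ptgs2, the inducible cyclooxygenase, had 0.79, Nlrp3, the inflammasome sensor, 0.74, Nos2 0.71, Trem1 0.64, Osm 0.62 and Il1rn, the IL-1 receptor antagonist, 0.58, whereas Tnf had 0.09. Slpi had 1.86 and Saa3 1.31, the latter with 35.8% of its untreated UMIs in 1 cell, and in thinned cells they had 0.80 and 0.56. Il1b had 0.74 in C1q macrophages and 0.48 in Ly6c2 monocytes, and Il6 1.65 and 0.67. Neutrophil markers moved with them, summing to 708 CPM in the untreated and 1316 in the combination class, with Cxcr2 at 0 by the class rule, and their part was not tested.

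**Figure D4:**
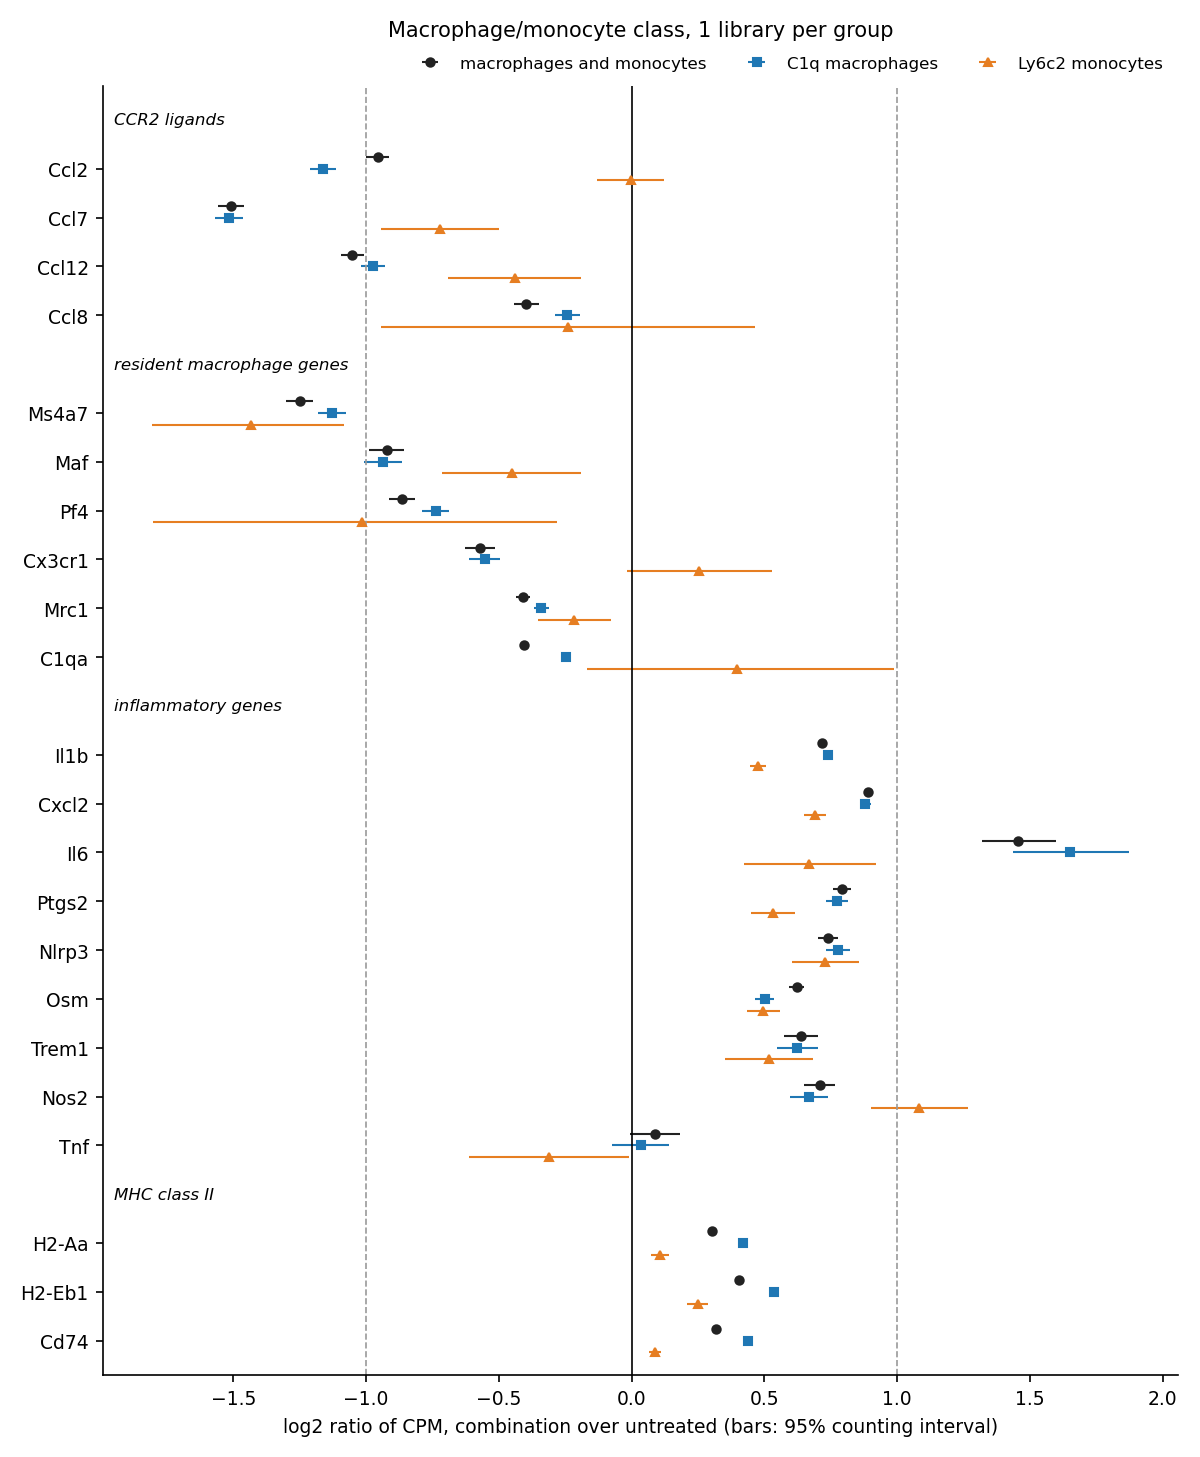
Log2 ratio of CPM (combination over untreated) in macrophages and monocytes (black), C1q macrophages (blue) and Ly6c2 monocytes (orange), with 95% counting intervals and dashed lines at 2-fold. Ccl7 lies at -1.51 and Ms4a7 at -1.25 in the class, Il6 at 1.46, and Ccl2 at -1.16 in C1q macrophages but -0.00 in Ly6c2 monocytes.

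The 300 bases around the start sites of Il6, Ccl12 and Ch25h are printed to show 1 inflammatory gene that was higher and 2 genes that were lower in the class. They run from 250 bases before to 50 bases after the start site on the gene's strand, from RefSeq on GRCm38.p6, and 4 of the 6 genes looked up were found, the fourth being Cxcl1. Capitals mark matches on either strand to the NF-kB motif GGGNNNNNCC, the AP-1 motif TGANTCA, the interferon-stimulated response element (GAAA, 2 bases of any kind, then GAAA) and the C/EBP motif TTNNGNAA.
Il6 (chr5:30012864-30013163, plus strand): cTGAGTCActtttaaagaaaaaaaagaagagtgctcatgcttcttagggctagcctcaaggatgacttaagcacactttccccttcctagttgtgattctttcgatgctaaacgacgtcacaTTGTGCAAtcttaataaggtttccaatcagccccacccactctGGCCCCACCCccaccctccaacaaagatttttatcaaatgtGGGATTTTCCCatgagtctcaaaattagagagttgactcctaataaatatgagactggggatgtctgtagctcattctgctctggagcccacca
Ccl12 (chr11:82101595-82101894, plus strand): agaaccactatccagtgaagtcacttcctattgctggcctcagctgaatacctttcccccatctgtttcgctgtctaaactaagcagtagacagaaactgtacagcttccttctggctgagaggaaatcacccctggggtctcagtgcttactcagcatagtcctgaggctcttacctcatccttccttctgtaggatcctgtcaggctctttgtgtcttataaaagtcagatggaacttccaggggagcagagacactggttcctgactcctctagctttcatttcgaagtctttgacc
Ch25h (chr19:34475099-34475398, minus strand): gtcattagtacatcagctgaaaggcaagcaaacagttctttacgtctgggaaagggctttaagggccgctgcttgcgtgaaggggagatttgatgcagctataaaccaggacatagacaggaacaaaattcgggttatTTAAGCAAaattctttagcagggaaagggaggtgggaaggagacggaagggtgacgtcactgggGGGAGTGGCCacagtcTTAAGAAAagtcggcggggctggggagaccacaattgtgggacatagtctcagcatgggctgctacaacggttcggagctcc
Il6 held the NF-kB letters at -85 to -76, at -44 to -35 and, overlapping the latter on the other strand, at -43 to -34 from the start site, with AP-1 at -249 to -243 and C/EBP at -128 to -121. Ch25h held 1 NF-kB match at -48 to -39 and C/EBP matches at -112 to -105 and -32 to -25, and the window of Ccl12 held none of the 4 motifs. Of 32851 promoters of the same length 50.8% held the NF-kB letters, 40.7% the C/EBP letters, 7.81% the AP-1 letters and 3.44% the response element, so a match to the first 2 is common.

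Interferon genes were not higher in these cells. None of 39 interferon-stimulated genes passed 2-fold, and 35 had ratios below 0, with a median of -0.23 beside -0.08 for all genes. Isg15 was at 400.2, 457, 449 and 416 CPM in the untreated, STING agonist, LTβR agonist and combination libraries, a log2 ratio of 0.05, Rsad2 had -0.17 and Ifit3 -0.75. Of 22 interferon-gamma response genes 1 passed 2-fold, Tgtp2 at -1.20, whose near-identical neighbour Tgtp1 makes its count uncertain, and Irf1 had 0.05. The chemokines Cxcl9 and Cxcl10, which draw T cells through CXCR3, had -0.29 and -0.18, whereas Ccl17, a ligand of CCR4, was at 44.3, 16.2, 81.7 and 102 CPM, a log2 ratio of 1.21. Ccl22, the other CCR4 ligand, had 0.49 with 44.0% of its untreated UMIs in 1 cell.

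Genes of MHC class II presentation stayed within 2-fold, with 11 of 14 above 0 and a median of 0.24. H2-Eb1 was at 4955, 4090, 4920 and 6557 CPM, a log2 ratio of 0.40, H2-Aa had 0.30 and Cd74, the invariant chain, 0.32, and in C1q macrophages they had 0.54, 0.42 and 0.44. MHC class I presentation genes had a median of -0.12, with 14 of 17 below 0. Of 16 monocyte genes 1 passed 2-fold, Ly6i at 1.21, and Chil3, a chitinase-like lectin of monocytes, had 0.92 while Ly6c2 had 0.08. Areg was at 13.2, 95.8, 59.9 and 50.1 CPM, a log2 ratio of 1.92 that was 0.78 with all deposited barcodes.

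The largest positive ratios in the class included genes of other lineages. Ebf1 had 2.75, Fkbp11 2.48 and Eaf2 2.03, all B or plasma cell genes, and 6 of 16 plasma cell genes were higher. The immunoglobulin part of UMIs was 0.0753% and 0.954%, Jchain was at 21.05 and 302 CPM in the untreated and combination libraries, and the B and plasma markers summed to 80.6 and 410. Without barcodes that met more than 1 class rule Ebf1 had 1.62, Fkbp11 1.26 and Eaf2 1.19. Lyz1 was at 11.4, 7.39, 44.7 and 99.0 CPM, a log2 ratio of 3.11, while the closely related Lyz2 had -0.03. Asgr2, a subunit of the hepatic lectin receptor, had 2.92 and St8sia6, a sialyltransferase, 2.22. Csmd1 had 5.43, from 8 untreated and 374 combination UMIs, and 0.82 in thinned cells. Adarb1, an RNA-editing enzyme, had 2.22, Susd4, a complement regulator, 2.03, Cacna1e 1.95 and Efna5 1.93, and Dennd5b was named by the same rank. Several of these were at a higher level in other classes of the combination library. Dennd5b was at 13.9 CPM in this class and 340 in B and plasma cells, Cacna1e at 21.8 and 414, and St8sia6 at 10.1 and 96.3. Csmd1 was at 12.5 CPM here and 104 in T cells, where 39.9% of its UMIs were in 1 cell, and the part of RNA from these cells in the ratios was not tested. In thinned cells Susd4 had 0.93, Cacna1e 0.64 and Efna5 -0.37.

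**Figure D5:**
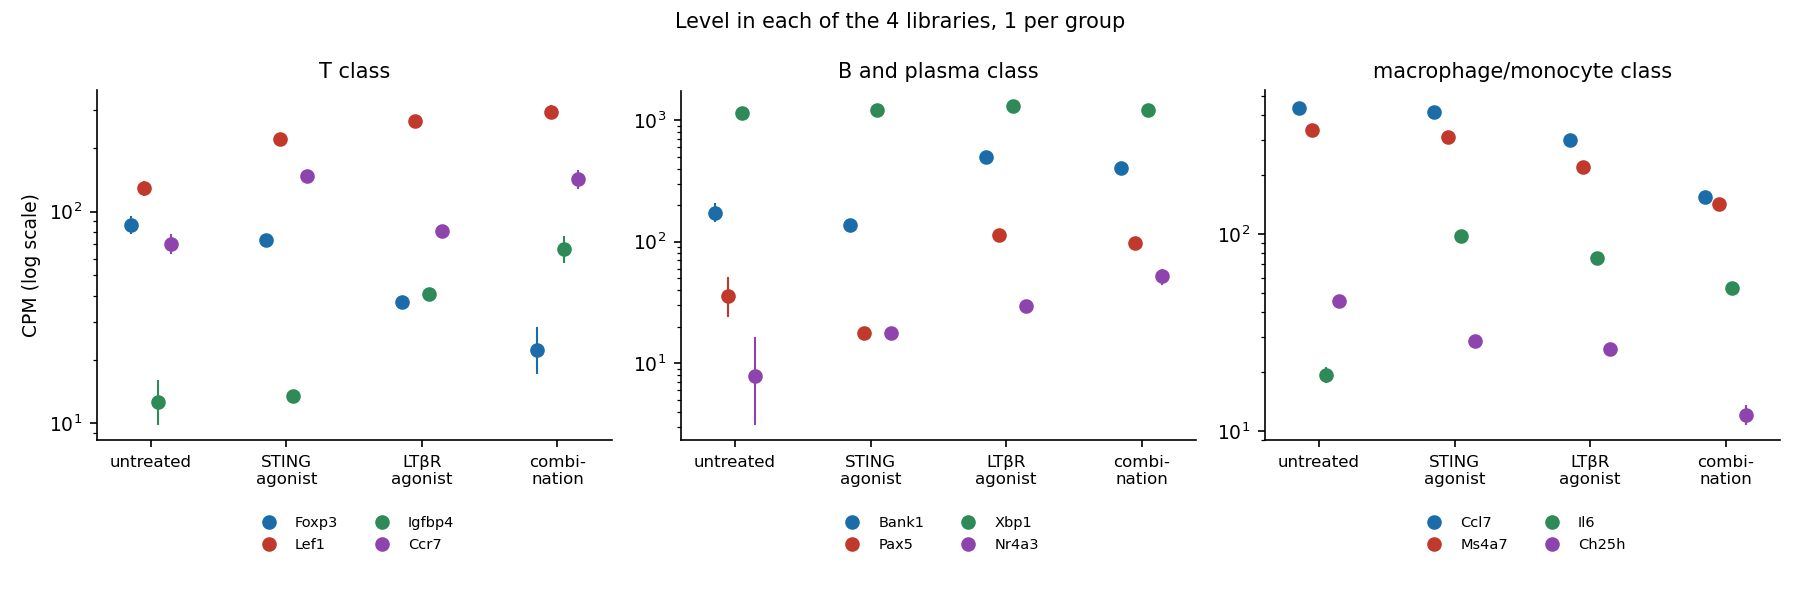
Level (CPM, log scale) of 4 genes in each class in the untreated, STING agonist, LTβR agonist and combination libraries, 1 library per point, with 95% Poisson intervals on the untreated and combination points. In T cells Foxp3 is at 86.1 untreated and 22.3 with the combination, and Igfbp4 stands at 66.5 in the combination T cells, Xbp1 is between 1146 and 1298 in B and plasma cells, and Ccl7 is lowest at 153 in combination macrophages and monocytes.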

How the data were processed

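CD45+ cells sorted from pooled KPC tumours were measured by droplet single-cell RNA sequencing, 1 library per group. The methods of the study describe a pair of independent experiments, of which 1 library per group was analysed here. The counts are UMIs per gene and barcode in the matrices the authors deposited, made with Cell Ranger against mm10. The submitters' processing notes name version 7.1.0 and the file headers 8.0.1, and the labels and the methods of the study name different 5′ kits. The deposited matrices held 8730 untreated and 16322 combination barcodes. The limits on genes (300 to 5000) and mitochondrial UMIs (6%) were those of the study, which left 7776 and 15698 cells. UMIs were summed over the cells of a population and scaled to 1000000 UMIs (CPM), and log2 ratios were taken after adding 0.5 to each sum, with exact binomial intervals (numpy 2.4.6, scipy 1.17.1, pandas 2.3.3). Levels had exact Poisson and shares Clopper-Pearson intervals. With 1 library per group no test was run. Levels between genes are not corrected for length.

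Doublets were kept. Scrublet in scanpy 1.11.5 called 0 and 0 cells by its automatic threshold, so an alternative left out the 305 untreated and 1066 combination barcodes of highest score, 0.4% per 1000 barcodes. The named genes were the 12 largest ratios in each direction among genes with at least 200 UMIs, found in at least 20 cells of the higher library and with at most 50% of its UMIs in 1 cell. Immunoglobulin, T cell receptor, ribosomal protein, mitochondrial, sex-linked, predicted and class rule genes and markers of other classes were not eligible, and a few eligible genes are not reported here. To these were added members of the 35 gene lists, and the few others given beside a result. The cells, classes and lists were chosen with earlier results of these data known. Figures used matplotlib 3.10.9. The ratio step was tested on simulated data.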

Additional observations from a re-analysis of the deposited data

Results flagged for a closer look

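One gene passed 2-fold in opposite directions in 2 classes, and the difference between the classes was not tested. Gzmc, a granzyme of cytotoxic cells, had a log2 ratio of -2.23 in T cells and of 2.44 in macrophages and monocytes. In the latter its combination UMIs came from 13 cells, with 56.4% in 1 of them, and the log2 ratio was -2.40 when the barcodes of highest doublet score were left out.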

How the results depend on the processing

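Counts of genes past 2-fold moved with several settings, and some of these also change how many genes are tested. With a minimum of 1000 UMIs they were 126 higher and 63 lower in all cells, 22 and 3 in T cells, 55 higher in B and plasma cells, and 60 and 12 in macrophages and monocytes. With a minimum of 50 UMIs they were 432 and 390, 191 and 133, 471 and 112, and 371 and 107. In cells thinned to 1000 UMIs they were 114 and 94, 9 and 0, 37 and 10, and 30 and 11, where fewer UMIs also leave fewer genes over the minimum. As a share of genes tested, higher genes in B and plasma cells were 6.01% as reported, 11.0% with a minimum of 1000 UMIs and 21.5% in thinned cells, and in T cells 1.19%, 1.19% and 0.959%. With all deposited barcodes they were 260 and 319, 64 and 94, 118 and 124, and 180 and 106, so lower genes outnumbered higher genes in all cells, T cells, and B and plasma cells, the reverse of the main counts. Without immunoglobulin and mitochondrial genes in the total, 164 genes were higher in all cells and 86 higher and 7 lower in B and plasma cells. Among T cells 46 genes were higher without the highest doublet scores and 51 under the stricter class rule. Among B and plasma cells 57 were lower with every cell weighted equally and 17 without the top cell of each gene. The cause was not tested.

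The share ratio of T cells was 0.527 in thinned cells and 0.304 under the stricter rule, that of B and plasma cells 9.70 in thinned cells, and that of macrophages and monocytes 1.22 in thinned cells, against 0.964 before, and 0.815 under the stricter rule. In an alternative chosen after seeing the data, thinned cells of a class gave plasma cells a ratio of shares of 1.05, against 0.910, and CD4 T cells 0.718, against 0.566. Log2 ratios that changed sign in thinned cells were Dcstamp -0.19, Vdr -0.82, Rnf217 -0.45, Ccl7 0.10 and H2ac4 0.40 in T cells, Iigp1 -0.93, Nr4a2 -0.017, Ciita -0.12 and Ltb -0.25 in B and plasma cells, and Efna5 -0.37 and Gpr31b 0.17 in macrophages and monocytes. Without the top cell of each gene Il5 was 0.80 and Il13 0.75 in all cells. With all deposited barcodes Cxcl1 was -1.15 in all cells, and Ccl5 -0.43 and Il1b -0.048 in B and plasma cells. Mpeg1 was 0.31 in B and plasma cells under the stricter rule, and Gzmc -2.40 in macrophages and monocytes without the highest doublet scores. No paired analysis was possible because each group analysed here was 1 library, and no replicate could be left out.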
